A study of Mus musculus with 8 samples.

Results

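The cytosolic ribosomal protein genes were examined in RNA sequencing of whole hearts from FVB/N mice, an inbred strain, that carried a FASTKD1 transgene or did not. Members were all genes in the deposited counts whose mouse symbol is Rpl or Rps followed by a number and at most 1 further letter, together with Rplp0, Rplp1, Rplp2 and Rpsa. Pseudogene symbols ending in -ps and the Rps6k kinases were left out. This gave 78 genes of 13227, of which 32 belong to the small subunit and 46 to the large subunit, 3 of these in the stalk, and 4 lie on the X chromosome. GENCODE M21 annotates 77 as protein coding and Rps4l as a transcribed processed pseudogene. Rpl10l, Rpl24, Rpl32l, Rpl36al, Rpl39l and Rpl6l were not analysed here.

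Both groups were FVB/N, labelled male and 3 months old, with 4 hearts each. The controls, with the genotype NTG, carry the letters A, B, D and E, and the hearts labelled FASTKD1 transgenic carry A, B, C and E. FASTKD1 belongs to the FASTK proteins, which bind RNA inside mitochondria. The title of the series calls its overexpression cardiac-specific, and the sources used here give neither the promoter nor the species of the transgene nor the number of founder lines. Beyond the separate letters, nothing in the labels says how the animals were bred or pooled. The p-values therefore treat the hearts as independent units, set the group difference against the spread between them and speak only for these hearts.

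The ribosome is built from ribosomal RNA and a single copy of nearly every ribosomal protein, so the proteins of the small and the large subunit are needed in proportion. Their mRNAs start with a short run of pyrimidines, the 5′ terminal oligopyrimidine (TOP) motif, through which mTORC1 and LARP1 control their translation. Striated muscle is known for Rpl3l, a paralog of Rpl3 that takes its place in the ribosome of heart and skeletal muscle and that gives way to Rpl3 when muscle grows.

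The start sites below were taken from RefSeq (GRCm38.p6), 50 bases before to 30 bases from the annotated start. They are shown because a pyrimidine run around the start was more frequent in the members' promoters than in all promoters. Capitals mark runs of 8 or more C or T. Rpl13a (chr7:45128716-45128795, minus strand), Rps6 (chr4:86857338-86857417, minus strand), Rps27 (chr3:90213619-90213698, minus strand), Rplp2 (chr7:141447601-141447680, plus strand) and Rpl11 (chr4:136053364-136053443, minus strand) hold such a run. Rpsa (chr9:120127716-120127795, plus strand) and Rplp0 (chr5:115559417-115559496, plus strand) hold none within 50 bases on either side of the start. Rpl3l (chr17:24727776-24727855, plus strand) has its only run downstream of the bases shown.
Rpl13a: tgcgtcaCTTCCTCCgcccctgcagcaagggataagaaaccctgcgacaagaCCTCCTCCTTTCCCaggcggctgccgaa
Rps6: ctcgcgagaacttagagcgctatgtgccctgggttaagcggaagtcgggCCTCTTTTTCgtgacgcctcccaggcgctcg
Rps27: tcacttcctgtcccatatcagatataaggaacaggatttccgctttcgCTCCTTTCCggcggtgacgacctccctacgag
Rplp2: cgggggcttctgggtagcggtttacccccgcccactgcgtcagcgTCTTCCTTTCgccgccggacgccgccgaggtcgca
Rpl11: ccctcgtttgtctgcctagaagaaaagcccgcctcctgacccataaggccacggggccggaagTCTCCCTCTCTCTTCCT
Rpsa: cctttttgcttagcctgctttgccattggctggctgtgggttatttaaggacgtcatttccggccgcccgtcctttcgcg
Rplp0: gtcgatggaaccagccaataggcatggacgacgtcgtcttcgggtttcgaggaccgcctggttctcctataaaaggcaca
Rpl3l: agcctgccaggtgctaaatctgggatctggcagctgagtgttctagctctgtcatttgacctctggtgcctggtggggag

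RefSeq promoters were matched for 57 of the 78 members and for 10061 tested genes in all. In the 100 bases around the start, 48 of the 57 members (84.2%) held a run of 8 or more C or T on the gene's strand, against 32.4% of all promoters. A run anywhere in this window was counted, so some lay far from the annotated start, as in Rps16, Rps19 and Rpl41. The median longest run was 10 bases in the members and 6 bases over all promoters. The 9 without such a run were Rpl10a, Rpl19, Rpl23, Rplp0, Rps13, Rps28, Rps3, Rps4x and Rpsa, although TOP mRNAs are defined by their measured 5′ ends, which an annotated start can miss by some bases. CTTCCG, searched on both strands over 300 bases as the core of sites bound by ETS factors, was in 68.4% of the members' promoters and in 31.0% of all. It overlaps the pyrimidine run where CTTCC is part of both. GGGCGG, the core of SP1 sites, was in 59.6% and 64.1%, AAGATGGC, the core of YY1 sites, in 7.02% and 4.60%, and TGATGCAA, a C/EBP-ATF response element, in 0 of 57 and in 0.596% of all. These letters are a description of the windows and not of binding. The median log2 fold change between the groups was 0.06 in the 48 members with a run and 0.08 in the 9 without.

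The library totals were 44584359 to 55769859 counts, of which 498706 to 651233 fell on the members. Fastkd1 was 26.3, 30.2, 191.9 and 33.8 counts per 1000000 counts of the library (CPM) in control hearts A, B, D and E and between 8845 and 11516 CPM in the transgenic hearts (log2 fold change 7.14, SE 0.75; edgeR adjusted p = 0.000684). The library labelled non-transgenic D thus had several times the Fastkd1 level of the other non-transgenic hearts, and it had 0 counts on Y-linked genes, where the other 7 libraries, labelled male like it, had between 10372 and 15914. Transgenic heart A had 2988 CPM of summed atrial markers against 16.2 to 572 CPM in the non-transgenic and 20.1 to 241 CPM in the other transgenic hearts. Mitochondrial transcripts took 18.6% to 30.1% of the counts in the non-transgenic and 21.9% to 27.0% in the transgenic hearts. All CPM values were scaled by the trimmed mean of M values (TMM), which sets the bulk of the genes equal between hearts.

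Few members passed when each mRNA was tested singly after TMM scaling. Of the 78 members 1, Rps4l, rose in the transgenic hearts at an edgeR adjusted p below 0.05, which is 1.28% of the members, against 133 of 13226 tested genes (1.01%). None fell by edgeR, against 32 of all genes (0.242%), while Rpl3l was the 1 member below 0 at an unadjusted edgeR p under 0.05 and the 1 that fell with DESeq2. At an unadjusted edgeR p below 0.05 stood 6 members, Rps4l, Rpl3, Rpl3l, Rpl13a, Rpsa and Rplp1, or 7.69%, and 10.7% of all genes did so. The members' shares are near the background in each case.

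The fold changes of the members were small and mostly on one side of 0. Their median log2 fold change was 0.06, a ratio of 1.05, with 66 values above 0 and 12 below, beside a median of 0.01 over all tested genes. The small subunit had a median of 0.08, the large subunit without the stalk 0.05, and the 3 stalk genes 0.19. The median SE of a member was 0.13, larger than the median change. The 95% interval of the change lay within 1.25-fold in either direction for 24 members, within 1.5-fold for 73 and within 2-fold for 77. The 5 whose interval reached beyond 1.5-fold were Rpl13a, Rpl23a, Rpl3, Rpl3l and Rps4l. Without non-transgenic heart E the median was -0.02 and 31 members were above 0, beside a median of -0.01 over all genes. Without non-transgenic heart D or transgenic heart B the members' median was 0.01, with 44 and 43 members above 0. It moved the other way without non-transgenic heart A or B, to 0.10 and 0.16, with 73 and 75 members above 0.

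**Figure D1:**
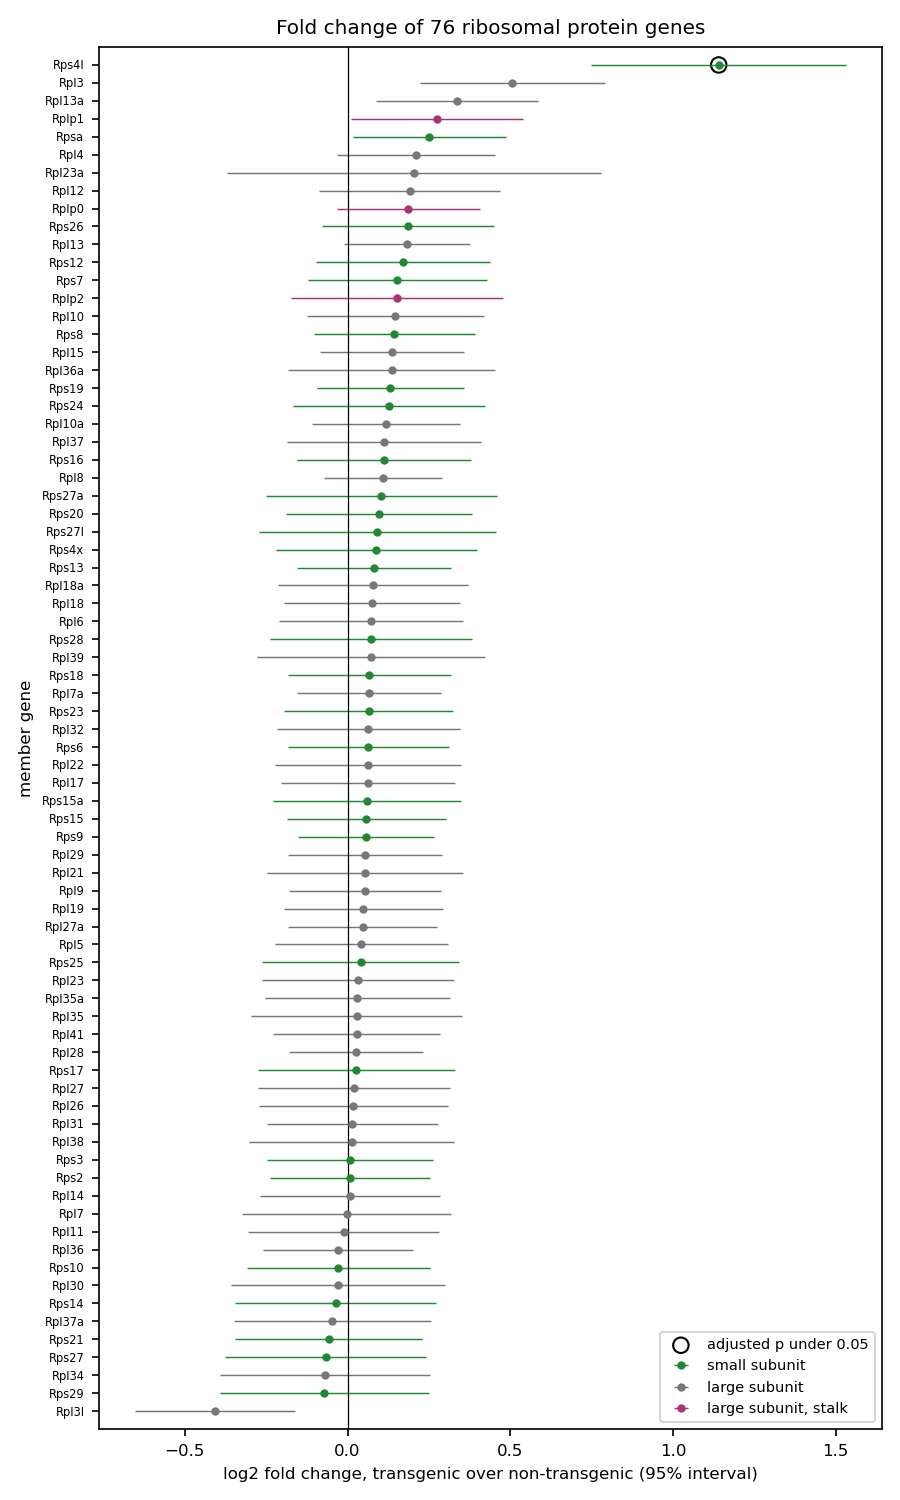
Log2 fold change of 76 of the 78 member genes, transgenic over non-transgenic, with the 95% interval from edgeR, ordered by size and coloured by subunit; the circle marks an adjusted p below 0.05. Rps4l stands alone at 1.14, Rpl3 follows at 0.51, Rpl3l is lowest at -0.41, and most others lie near 0 with intervals that cross it.

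Rps4l had the largest fold change among the members. Rps4x, on the X chromosome, encodes the small subunit protein eS4, and Rps4l is an intronless copy of this gene on chromosome 6 (chr6:148354656-148355598, plus strand, GRCm38). It was low, with 3.56, 3.76, 3.37 and 2.47 CPM in control hearts A, B, D and E and 5.47, 7.48, 7.44 and 8.58 CPM in transgenic hearts A, B, C and E. Every transgenic heart was above every non-transgenic one, and the depth was 130 to 186 counts against 241 to 440. This is a log2 fold change of 1.14 with an SE of 0.18 (edgeR adjusted p = 0.00866). It was 1.27 (edgeR adjusted p = 0.00794) without non-transgenic D and transgenic A. With the title letters as a replicate block the log2 fold change was 1.13 with an SE of 0.24 (edgeR adjusted p = 0.115). The letters D and C have no counterpart in the other group, so those hearts do not inform the comparison in this fit.

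The related gene Rps4x did not pass the test. It had 247, 299, 207 and 196 CPM in the non-transgenic and 269, 272, 230 and 238 CPM in the transgenic hearts, which overlap (log2 fold change 0.09, SE 0.14; edgeR adjusted p = 0.883). Rps4l came to 1.26% to 1.63% of the Rps4x level in the non-transgenic and to 2.03% to 3.61% in the transgenic hearts. An exact permutation test gave a two-sided p = 0.0286, the smallest that 4 against 4 allows, and 0.0429 adjusted over 3 paralog ratios. Rps4l alone had already separated the groups, so this p-value repeats that separation and is not independent evidence. Of the 50-base stretches of Rps4l transcripts 14.9% occur in another annotated gene, and that gene is Rps4l-ps. No exact 50-base stretch is thus shared with Rps4x, but reads placed with mismatches are not covered by this check. Rps4l lies inside Tmtc1, on its opposite strand. The sources used here do not say whether counting used the strand, and without it reads of the pair cannot be told apart. Tmtc1 had 124 ± 16.7 CPM (SD, n = 4) in the non-transgenic and 114 ± 9.75 CPM (SD, n = 4) in the transgenic hearts.

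**Figure D2:**
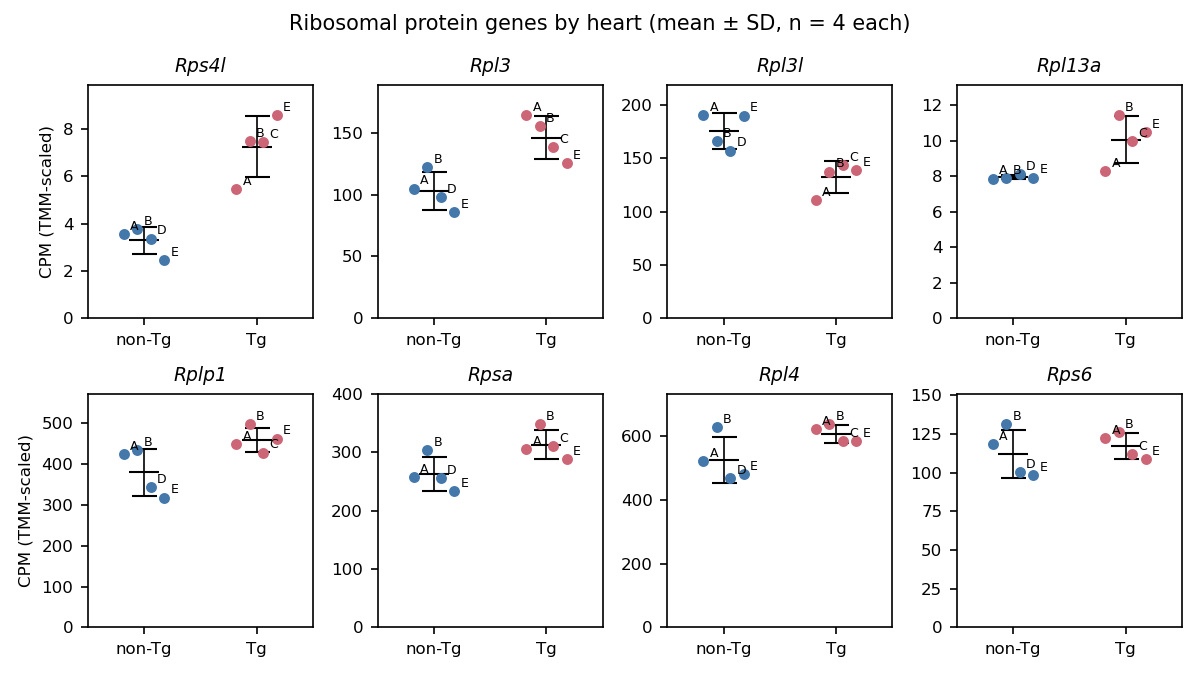
CPM (TMM-scaled) of 8 member genes in each heart, with the heart's letter, and mean ± SD of 4 hearts per group as bars; each panel has its own axis from 0. The groups are apart for Rps4l, Rpl3, Rpl13a and Rpl3l, where Rpl3l is lower in the transgenic hearts, and overlap for Rplp1, Rpsa, Rpl4 and Rps6.

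Rpl3 was higher and Rpl3l lower in every transgenic heart, though neither passed the threshold. Rpl3 encodes uL3, which lines the peptidyl transferase centre of the large subunit (chr15:80077791-80091868, minus strand, GRCm38). It was at 105, 122, 97.8 and 85.6 CPM in control hearts A, B, D and E and at 164, 155, 138 and 125 CPM in transgenic hearts A, B, C and E. All 4 transgenic values were above all 4 non-transgenic ones, with a log2 fold change of 0.51 (SE 0.13; edgeR adjusted p = 0.124). Rpl3l, the muscle paralog (chr17:24727820-24736143, plus strand), was at 191, 166, 157 and 190 CPM in the non-transgenic and at 111, 138, 143 and 139 CPM in the transgenic hearts. Here all transgenic values were below all non-transgenic ones, with a log2 fold change of -0.41 (SE 0.11; edgeR adjusted p = 0.161).

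Rpl3 made up 35.5%, 42.4%, 38.3% and 31.1% of the summed CPM of the pair in control hearts A, B, D and E and 59.7%, 53.0%, 49.2% and 47.4% in transgenic hearts A, B, C and E. The means were 36.8% ± 4.77 and 52.3% ± 5.46 (SD, n = 4 each), and the groups did not overlap. An exact permutation test gave a two-sided p = 0.0286, the smallest possible, and 0.0429 adjusted over 3 paralog ratios. Rpl3 and Rpl3l had each already separated the groups, in opposite directions. The outcome for their share was therefore fixed, and this p-value is no further evidence. Per transcript length, the ratio of the Rpl3 level to the Rpl3l level was 0.60 ± 0.12 (SD, n = 4) in the non-transgenic and 1.14 ± 0.26 (SD, n = 4) in the transgenic hearts. Rpl3l shares no 50-base stretch with another annotated gene, while 35.0% of those of Rpl3 occur elsewhere, mostly in Rpl3-ps1. Rpl3 also overlaps Syngr1 on the other strand, which had 50.2 ± 6.13 CPM (SD, n = 4) in the non-transgenic and 46.6 ± 2.71 CPM (SD, n = 4) in the transgenic hearts.

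The call of this pair depended on the setting. Rpl3 passed with library totals as the only scaling (edgeR adjusted p = 0.0217), with totals of nuclear coding genes (0.0289), with the DESeq2 test (adjusted p = 0.0127) and without non-transgenic heart B (edgeR adjusted p = 0.0408). Rpl3l passed with the DESeq2 test alone (adjusted p = 0.0146). The DESeq2 test called 408 of 13227 genes in all, against 165 of 13226 in the edgeR analysis. Over all alternatives the log2 fold change of Rpl3 was 0.41 to 0.66 and that of Rpl3l -0.50 to -0.31.

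Rpl3l is expressed by muscle cells, and markers of these cells were lower beside it. The 9 cardiomyocyte markers, among them Myh6, Tnnt2 and Pln, summed to 71453 to 81881 CPM in the non-transgenic and 57449 to 62095 CPM in the transgenic hearts. Their median log2 fold change was -0.32, with all 9 below 0, 7 of 9 at an unadjusted edgeR p below 0.05, and 0 of 9 past the adjusted threshold. Markers of some other cell types were lower too. Above 0 were 0 of 6 endothelial, 0 of 6 macrophage and leukocyte and 0 of 4 erythroid markers, with medians of -0.07, -0.17 and -0.67. By contrast 4 of 7 fibroblast, 3 of 5 smooth muscle and pericyte and 4 of 4 atrial markers were above 0. In whole hearts, fewer cells of a type and less RNA per cell cannot be told apart. The part of the cardiomyocyte markers in the Rpl3l values was not tested.

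**Figure D3:**
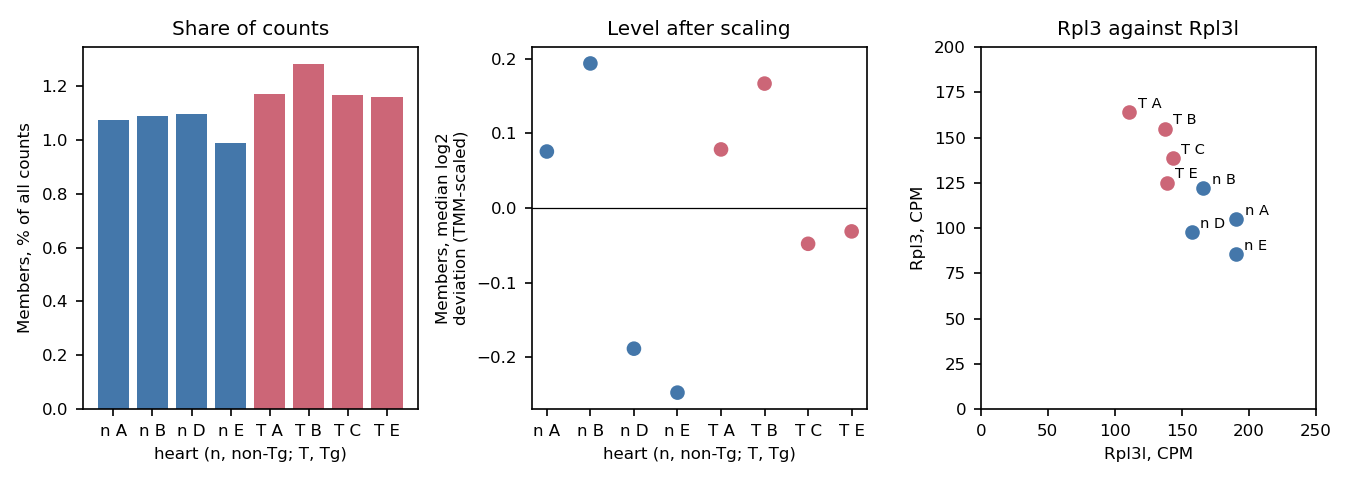
Left, the members' summed counts as a percentage of all counts in each heart; middle, the members' median deviation from their mean over 8 hearts (log2 CPM, TMM-scaled); right, Rpl3 against Rpl3l in CPM for each heart, non-transgenic in blue (n) and transgenic in red (T). The shares do not overlap between the groups while the scaled medians do, and the transgenic hearts lie to the upper left in the last panel.

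The third pair of paralogs with counts for both members, Rps27 and Rps27l, gave no such contrast. Rps27l, which p53 induces in many cells, had 28.9, 35.6, 24.9 and 21.5 CPM in the non-transgenic and 30.1, 35.6, 27.0 and 25.2 CPM in the transgenic hearts (log2 fold change 0.09, SE 0.16; edgeR adjusted p = 0.900). It stood at 17.4% ± 1.097 of the Rps27 level in the non-transgenic and at 19.5% ± 2.09 in the transgenic hearts (SD, n = 4 each; exact permutation test, two-sided p = 0.171, the same adjusted over 3 ratios). Rpl22l1, the paralog of Rpl22, lies outside the symbol rule and had 13.4 ± 3.41 and 15.3 ± 2.85 CPM (SD, n = 4 each). Rpl36a, whose paralog Rpl36al was not analysed here, had 64.7 ± 12.9 and 71.0 ± 7.68 CPM (SD, n = 4 each).

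Rpl13a is known as the protein that leaves the ribosome to silence mRNAs in the interferon response. It had 7.86, 7.91, 8.11 and 7.92 CPM in control hearts A, B, D and E and 8.29, 11.4, 9.96 and 10.5 CPM in transgenic hearts A, B, C and E. The non-transgenic values were almost equal and all below the transgenic ones, of which heart A was close to them (log2 fold change 0.34, SE 0.11; edgeR adjusted p = 0.296). These counts are uncertain. The gene is overlapped on its own strand by Gm45713, with which it shares most of its repeated 50-base stretches (24.0% of all its stretches occur elsewhere).

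The groups also did not overlap for Rpl8, which encodes uL2 of the peptidyl transferase centre. Its levels were 255, 256, 244 and 233 CPM in the non-transgenic and 263, 284, 261 and 258 CPM in the transgenic hearts (log2 fold change 0.11, SE 0.08; edgeR adjusted p = 0.721). The fold change was 0.067 (log2) without control E and 0.064 without transgenic B. In all, 4 members (Rps4l, Rpl3, Rpl13a and Rpl8) were higher in every transgenic than in every non-transgenic heart, or 5.13% of the members, against 4.58% of all tested genes. Rpl3l alone was lower in every transgenic heart, or 1.28% of the members, against 2.8% of all genes. These shares too are close to the background.

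The 3 proteins of the stalk, which recruits elongation factors to the large subunit, had positive fold changes that did not pass. Rplp1 had 425, 433, 343 and 318 CPM in the non-transgenic and 449, 498, 428 and 462 CPM in the transgenic hearts (log2 fold change 0.27, SE 0.12; edgeR adjusted p = 0.444). Transgenic heart C was below non-transgenic heart B, so the groups overlapped. Rplp0, the base of the stalk, had 435, 476, 390 and 377 CPM against 472, 510, 459 and 470 CPM (log2 fold change 0.19, SE 0.10; edgeR adjusted p = 0.569), also with overlap. Rplp2 had 180, 115, 189 and 171 CPM against 165, 194, 185 and 184 CPM (log2 fold change 0.15, SE 0.15; edgeR adjusted p = 0.799). Non-transgenic heart B, the highest of its group by the median member, was the lowest of all for Rplp2. Without heart B the log2 fold change of Rplp2 was 0.017, and without control E those of Rplp1 and Rplp0 were 0.18 and 0.12. Of the 450 stretches of 50 bases in Rplp1 transcripts, 270 occur in other genes.

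Rpsa, which serves both in the small subunit and as a laminin receptor, had 258, 304, 256 and 234 CPM in the non-transgenic and 306, 349, 310 and 288 CPM in the transgenic hearts (log2 fold change 0.25, SE 0.11; edgeR adjusted p = 0.430). Only transgenic heart E, at the lower end of its group, lay below the highest non-transgenic heart. Rpl4, at the exit tunnel of the large subunit, had 521, 626, 467 and 479 CPM against 620, 637, 582 and 583 CPM (log2 fold change 0.21, SE 0.11; edgeR adjusted p = 0.552), with non-transgenic heart B among the transgenic values. Rps19 and Rpl10 are altered in Diamond-Blackfan anemia and in leukaemia, respectively. Rps19 had 67.8 ± 7.97 CPM and 74.3 ± 5.25 CPM (SD, n = 4 each; log2 fold change 0.13, SE 0.10; edgeR adjusted p = 0.735). Rpl10 had 192 ± 29.6 CPM and 212 ± 17.2 CPM (SD, n = 4 each; log2 fold change 0.15, SE 0.12; edgeR adjusted p = 0.755). Without control E the log2 fold changes of Rps19 and Rpl10 were 0.061 and 0.056.

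Rps6, the substrate of the S6 kinases downstream of mTORC1, had 118, 132, 100 and 98.7 CPM in the non-transgenic and 122, 126, 112 and 109 CPM in the transgenic hearts. The ranges overlapped almost entirely (log2 fold change 0.06, SE 0.11; edgeR adjusted p = 0.899). The 3 proteins that bind MDM2 and so link impaired ribosome assembly to p53 overlapped between the groups as well. Rpl5 was at 172 ± 28.1 and 177 ± 10.7 CPM, Rpl11 at 122 ± 22.1 and 121 ± 11.0 CPM, and Rpl23 at 221 ± 42.3 and 227 ± 14.3 CPM (non-transgenic then transgenic, SD, n = 4 each). Cdkn1a, the p53 target that encodes the cell cycle inhibitor p21, was higher at the same time, at 11.1 ± 1.95 against 47.6 ± 10.8 CPM (SD, n = 4 each; log2 fold change 2.1, SE 0.18; edgeR adjusted p = 0.000147). It was the 1 of 18 genes of ribosome quality control and nucleolar stress that passed, and that list had a median log2 fold change of 0.05 and 2 of 18 genes at an unadjusted p under 0.05, beside 10.7% of all genes.

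At the other end of the order, the 4 lowest members after Rpl3l were Rps29, Rpl34, Rps27 and Rps21, whose groups overlapped. Rps29, a zinc-binding protein of the small subunit, had 303, 334, 224 and 223 CPM in the non-transgenic and 260, 285, 237 and 250 CPM in the transgenic hearts. The spread of the non-transgenic group enclosed all transgenic values. The same held for Rps27, with 174, 191, 138 and 131 CPM against 170, 161, 134 and 140 CPM.

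Levels per kilobase differed far more between members than between groups. The length used was the shortest APPRIS principal transcript, or the gene's shortest transcript where it had no principal one. In the non-transgenic hearts the median was 146 CPM per kilobase, and the highest were Rplp1 at 761, Rps29 at 695, Rps15 at 519, Rps27 at 459 and Rplp2 at 389. The lowest were Rpl23a at 1.82, Rps4l at 4.17, Rps27a at 5.55, Rpl13a at 7.59 and Rpl29 at 23.8 CPM per kilobase. Rpl23a, at the tunnel exit, thus had 45 to 77 counts in 7 of the 8 libraries and 33 in transgenic heart A, and Rps27a, which is made as a fusion with ubiquitin, had 143 to 232 counts.

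Many of these genes have processed copies elsewhere in the genome, and the sources used here do not say how the authors' counting treated reads with several matches. Of the 78 members, 76 share at least 1 stretch of 50 bases with another annotated gene, with a median of 20.4% of a member's stretches. Rpl36 shared the most, 81.1%, and Rpl3l shared none. For Rpl23a the share was 50.1%, spread over 28 genes. The 39 members with fewer shared stretches had a median level of 165 CPM per kilobase and a median log2 fold change of 0.06, and the 39 with more had 131 CPM per kilobase and 0.07.

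**Figure D4:**
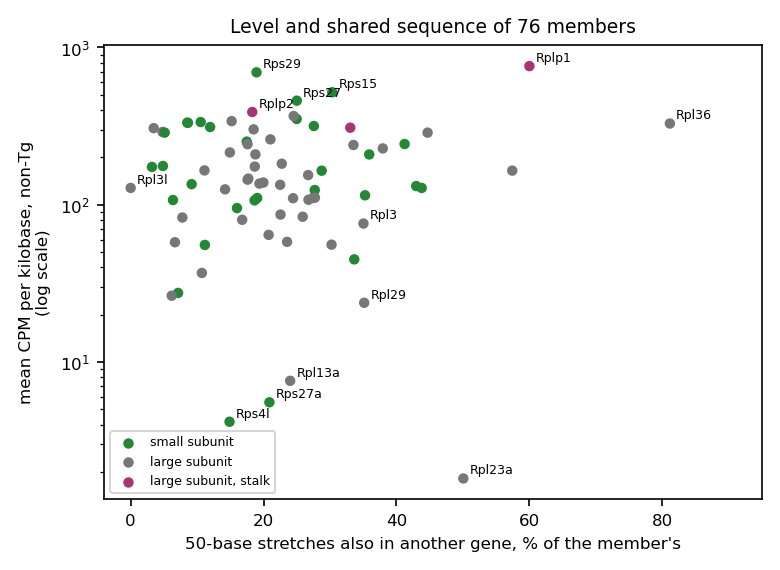
Mean level of 76 of the 78 members in the non-transgenic hearts, in CPM per kilobase on a log scale, against the percentage of its 50-base stretches that occur in another annotated gene; colours mark the subunit. Rpl23a, Rps4l, Rps27a and Rpl13a lie far below the rest, at 7.59 CPM per kilobase or less, and genes with many shared stretches, such as Rpl36 and Rplp1, are also found at high levels.

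Introns of ribosomal protein genes often carry small nucleolar RNAs, which guide the modification of ribosomal RNA. On GRCm38, 29 members contain 56 annotated snoRNA genes on their own strand, among them Rpl13a with Snord32a, Snord33, Snord34 and Snord35a and Rpsa with Snora62. The hosts had a median log2 fold change of 0.08 and the 49 other members 0.05. Another coding or long noncoding gene overlaps 25 members, and 15 of these have an overlapping gene with counts in the deposited data.

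From heart to heart the members varied together. Over 8 hearts the median correlation between 2 members was 0.85, and it was 0.90 after each group's mean was removed, while the median between a member and the other 13148 genes was -0.02. The hearts share libraries and scaling, so these values are a description. Relative to each gene's mean, the median member was at 0.08, 0.19, -0.19 and -0.25 (log2) in control hearts A, B, D and E and at 0.08, 0.17, -0.05 and -0.03 in transgenic hearts A, B, C and E. In non-transgenic hearts A and B 64 and 72 members were above their own mean, in hearts D and E 3 and 2. The spread among the non-transgenic hearts was thus wider than the distance between the groups. For comparison, 4514 other genes of similar exon length had medians of 0.08, 0.06, -0.05 and -0.03 in control hearts A, B, D and E. In transgenic hearts A, B, C and E their medians were 0.01, 0.01, -0.03 and -0.03. Part of the pattern is therefore not particular to the members, and the part of transcript length in it was not tested. The members least like the others were Rps2 with a median correlation of -0.56, Rplp2 with -0.38, Rpl3l with -0.25, Rpl13a with 0.22 and Rps4l with 0.36. Rpl37, Rps15a, Rpl21 and Rps6 were the most like the others, at 0.92 to 0.93.

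**Figure D5:**
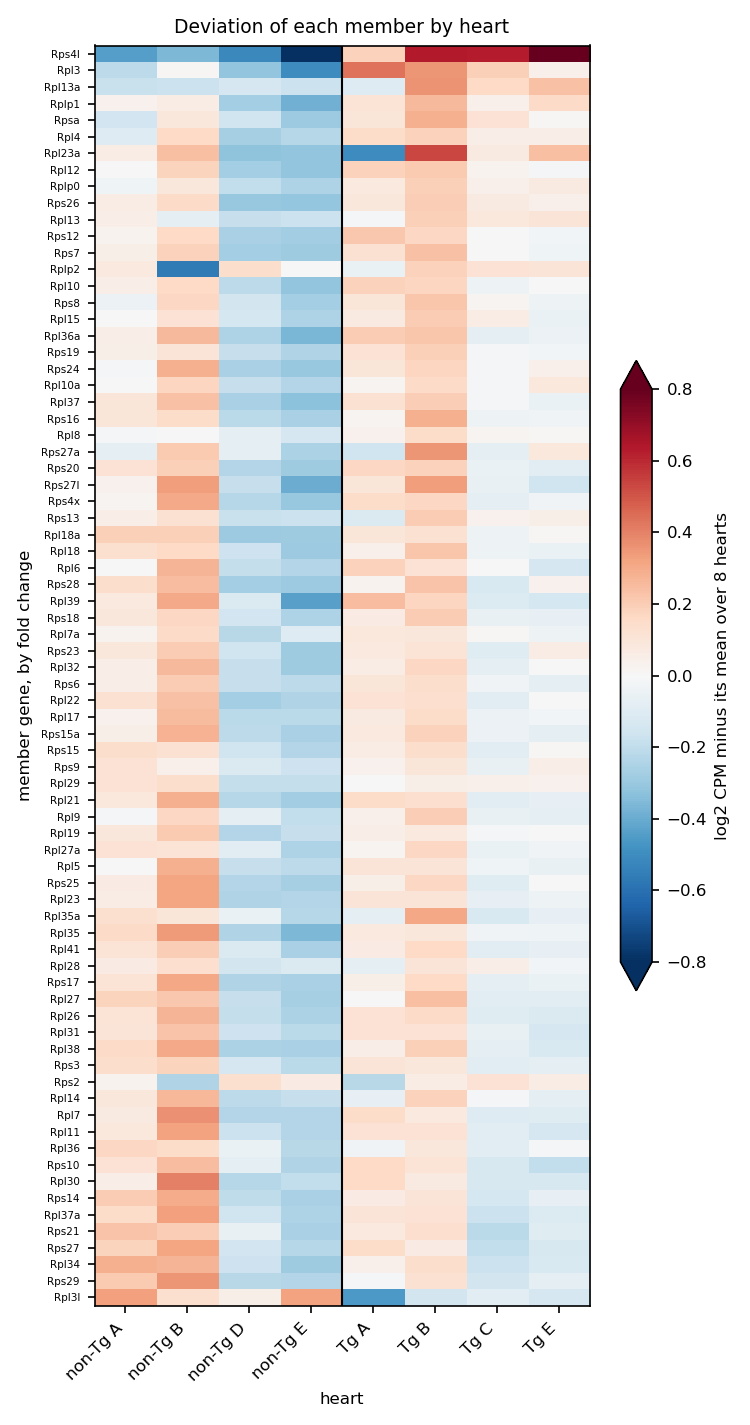
Log2 CPM of each of 76 of the 78 members minus its mean over the 8 hearts, with genes ordered by fold change and hearts by group. Most rows are high in non-transgenic A and B and transgenic A and B and low in non-transgenic D and E, and Rps2, Rplp2 and Rpl3l depart from this pattern.

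The summed share of the members in all counts did separate the groups, at 1.07%, 1.09%, 1.096% and 0.988% in control hearts A, B, D and E and 1.17%, 1.28%, 1.17% and 1.16% in transgenic hearts A, B, C and E. The means were 1.06% ± 0.05 and 1.20% ± 0.06 (SD, n = 4 each), a difference of 0.13 percentage points. Of nuclear counts without Fastkd1, the share was 1.25% to 1.56% in the non-transgenic and 1.51% to 1.71% in the transgenic hearts, and these ranges overlap. With library totals as the scaling, 77 of 78 members were above 0 at a median log2 fold change of 0.15, beside a median of 0.08 over all genes. With totals of nuclear coding genes the members' median was 0.17 and that of all genes was shifted to 0.10. The direction of the whole group is therefore given here relative to the median of all genes under each scaling.

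Genes that serve the ribosome but carry other symbols were similar. Rack1, a scaffold on the small subunit, had 315 ± 30.1 and 362 ± 24.1 CPM (SD, n = 4 each), and Fau, the precursor of eS30, 51.9 ± 8.52 and 50.7 ± 4.29 CPM (SD, n = 4 each). None of the 4 tested genes of this kind passed. Of 20 other mRNAs known to carry a TOP motif, 1 rose and 0 fell, with a median log2 fold change of 0.11 and 17 of 20 above 0. Of all genes tested, 1.01% rose and 0.242% fell, and 6771 of 13226 were above 0. At an unadjusted p under 0.05 there were 3 of the 20, beside 10.7% of all genes. The 1 was Eef1a1, the elongation factor that delivers aminoacyl-tRNA, with 682, 763, 619 and 559 CPM in the non-transgenic and 1069, 1061, 884 and 1030 CPM in the transgenic hearts. Its groups were apart (log2 fold change 0.62, SE 0.12; edgeR adjusted p = 0.0314). Pabpc1, the poly(A)-binding protein, had 71.3 ± 9.87 and 92.2 ± 5.45 CPM (SD, n = 4 each; edgeR adjusted p = 0.208).

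The factors that assemble ribosomes did not pass the test. Among 18 genes of RNA polymerase I and ribosomal RNA transcription 0 passed, with a median log2 fold change of 0.07. Among 29 genes of snoRNPs and RNA modification 0 passed (median 0.12), and Nhp2, a core protein of box H/ACA particles, had the smallest p, at 10.6 ± 0.943 and 15.0 ± 2.16 CPM (SD, n = 4 each; edgeR adjusted p = 0.105). Of 33 large subunit assembly genes 0 passed (median 0.11), led by the nucleolar GTPase Gnl3 at 26.2 ± 4.91 and 35.6 ± 3.60 CPM (SD, n = 4 each; edgeR adjusted p = 0.231). Of 21 small subunit assembly genes 0 passed (median 0.09), with Rrp12 at 25.9 ± 3.18 and 41.0 ± 9.15 CPM (SD, n = 4 each; edgeR adjusted p = 0.124). At an unadjusted edgeR p below 0.05 stood 1, 1, 2 and 3 genes of these 4 lists, beside 10.7% of all genes.

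Among the initiation factors and among the mTORC1 and TOP mRNA regulators 1 gene each rose, beside 1.01% of all genes. Of 32 initiation factors, Eif3c, a core subunit of eIF3, rose from 190 ± 34.6 to 301 ± 14.6 CPM (SD, n = 4 each; log2 fold change 0.66, SE 0.13; edgeR adjusted p = 0.0353), and the list had a median of 0.04. Eef1a1, Eef1a2, Eef1b2, Eef1d, Eef1g and Eef2 were counted with the TOP mRNAs above. Among 15 further elongation, termination and recycling factors 0 passed (median 0.13), with Gtpbp2, which rescues stalled ribosomes, at 41.3 ± 7.53 and 65.1 ± 9.66 CPM (SD, n = 4 each; edgeR adjusted p = 0.0922). Of 21 mTORC1 and TOP mRNA regulators, Sesn2, which restrains mTORC1 when amino acids are short, rose from 2.77 ± 0.83 to 11.7 ± 1.24 CPM (SD, n = 4 each; log2 fold change 2.07, SE 0.21; edgeR adjusted p = 0.000517). Eif4ebp1, the inhibitor of the cap-binding factor, had 41.9 ± 6.22 and 54.9 ± 3.29 CPM (SD, n = 4 each; edgeR adjusted p = 0.192). At an unadjusted p under 0.05 (10.7% of all genes) there were 5 of the 32 initiation factors, 3 of the 15 and 5 of the 21. By contrast with the ribosomal proteins, all 11 genes of the integrated stress response list rose, at a median log2 fold change of 4.0. That list was put together with results of these samples known and is not independent evidence of its direction.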

How the data were processed

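RNA from 8 whole hearts was sequenced. The authors deposited raw counts for 13227 Ensembl genes. In every one the second-highest heart had at least 1.00 CPM before scaling, so genes below that level are not among them. The shares over all genes refer to this set. The submitters' processing notes name cutadapt 1.15, TopHat2 and the build GRCm38, also called mm10. The counter, its annotation, its use of strand and its rule for reads with several matches are not given in the sources used here. RNA was taken up in Trizol and prepared with a TruSeq kit, per the labels' protocols.

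Symbols and coordinates came from GENCODE M21. In R 4.3.3, edgeR 4.0.16 tested transgenic against non-transgenic hearts (4 against 4, two-sided): filterByExpr kept 13226 of 13227 genes, followed by TMM scaling, the quasi-likelihood F test and Benjamini-Hochberg adjustment over all 13226, with a threshold of 0.05. The standard error is the fold change divided by the root of F. CPM used TMM library sizes, with a prior count of 2 for logarithms. Alternatives were DESeq2 1.42.0, limma-voom (limma 3.58.1), other scalings and filters, offsets for transcript length and GC content, a replicate block and hearts left out. The length and GC offsets, their use with the block and the inclusion of Rps3a1 were chosen after seeing the data. Ratios of paralogs were compared by exact permutation tests. On simulated counts for the 13226 genes, with 50 altered genes at each size, the test recovered none at 1.25-fold, 32% at 1.5-fold, 92% at 2-fold and 100% at 4-fold.

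Named genes were the members past the threshold, the 5 highest and 5 lowest by fold change and by level per kilobase, members whose groups do not overlap, genes with fixed roles and paralog pairs, and for each list the genes past the threshold or those with the smallest p. Results for 2 members are not reported singly here. The members and the gene lists were chosen with earlier results of these data known.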

Additional observations from a re-analysis of the deposited data

Results flagged for a closer look

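In 152 groups of 4 hearts examined (76 of the members in each genotype), and in the members' summed share of counts, 3 values stood apart from the other 3 of their group by more than Dixon's 95% critical value. All 3 came from transgenic heart B. Its Rpl35a level was 16.1 CPM, with the other transgenic hearts at 11.96 to 12.47 CPM. Its Rps16 level was 62.6 CPM, with the others at 50.2 to 52.2 CPM. The members took 1.28% of the counts in this heart and 1.16% to 1.17% in the others. Chance alone gives such a value in about 1 of 20 groups.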

How the results depend on the processing

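Members that rose numbered 1 in the edgeR analysis and 2 with library totals only, with totals of nuclear coding genes without Fastkd1, with DESeq2 and without non-transgenic heart B (Rpl3 was added in each), with length offsets (Rplp1) and without non-transgenic A and B together (Rps26). There were 0 with a minimum of 10 CPM in 4 hearts, a filter that Rps4l did not pass. DESeq2 called 1 member lower, Rpl3l. The calls over all genes, in either direction, moved as well. They numbered 165 of 13226 in the edgeR analysis, 168 with library totals, 211 with totals of nuclear coding genes and 408 of 13227 with DESeq2. Without non-transgenic heart B there were 218, with length offsets 180 and without non-transgenic A and B 140. The minimum of 10 CPM left 133 of 8167 genes. Leaving out one heart at a time gave 1 to 2 members that rose, 0 that fell, a median log2 fold change of -0.02 to 0.16 and a difference in the share of counts of 0.11 to 0.15 percentage points. The median was 0.26 without non-transgenic A and B. The difference in the share was 0.20 points among nuclear counts without Fastkd1. The cause of these shifts was not tested.

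With one heart left out at a time, Rps4x ranged from -0.0078 to 0.22, Rps6 from -0.0094 to 0.15 and Rps27l from -0.029 to 0.23. The values below 0 came without control E, and for Rps27l also without transgenic B (-0.025). Without non-transgenic D and transgenic A together, Rps4x was -0.0043 and Rps6 -0.0072. The 12 other members whose fold changes are printed in the report kept their direction in every alternative run. Over all 78 members, 31 were above 0 without control E, 43 without transgenic B and 75 without control B, against 66 with every heart.

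The title letters A, B and E occur in both groups, and the deviations of same-letter hearts correlated at 0.30, -0.08 and 0.36. Those of hearts with different letters correlated at -0.44 to 0.45, a range that holds the same-letter values, so the letters were not taken as pairs. With the letters as a replicate block, 0 members rose (Rps4l at a log2 fold change of 1.13, edgeR adjusted p = 0.115), also together with length and GC offsets (0 members; 0.0702), and 124 genes in all were called instead of 165. Non-transgenic D and transgenic C have no counterpart letter, so the block fit compares the groups on the remaining hearts only.

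In the simulation none of 50 changes of 1.25-fold was recovered, and 6 of its 118 calls were genes that had not been altered. The altered genes were drawn at random from all genes above a low level and were not the members. Changes of that size in single members could thus be missed with 4 hearts a group.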
